A study of Mus musculus with 12 samples.

Results

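The 76 mitochondrial ribosomal protein genes measured on these arrays were followed through a first and a second exposure of macrophages to lipopolysaccharide (LPS), the bacterial outer membrane component sensed by Toll-like receptor 4. They were taken by symbol, every gene whose platform symbol begins with Mrpl or Mrps and a digit, among 18193 named genes. Of them, 47 carry an Mrpl symbol, for the large subunit, and 29 an Mrps symbol, for the small subunit. Each gene stands for its brightest probe set, and 156 probe sets belong to the 76 genes. Mrpl30 and Mrpl53 had no probe set of their own and are not among them.

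The cells were macrophages grown in M-CSF (macrophage colony-stimulating factor) from bone marrow of C57Bl/6 mice, and every group shares this origin. Untreated cells received no LPS at either step, and cells given LPS once received 100 ng/ml only at the last step. Pretreated cells received 100 ng/ml for 18 h and none afterwards, and restimulated cells received 100 ng/ml for 18 h and again at the last step. All groups had a change of medium and 2 h of rest between the steps. How long the last step lasted is not given here. There were 12 arrays, 3 in each of the 4 groups, and the labels call the replicates biological and letter them A, B and C.

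Mitochondria keep a small genome of their own, and a dedicated ribosome, the mitoribosome, translates its messenger RNAs into membrane-embedded subunits of the respiratory chain and the ATP synthase. Its ribosomal RNAs come from the mitochondrial genome, while all of its proteins are encoded in the nucleus, made in the cytosol and imported. Many have counterparts in bacterial ribosomes and others are found only in mitochondria. In macrophages, LPS is known to shift energy metabolism from respiration towards glycolysis.

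All values below are log2(intensity + 16), and a change is a difference between group means on that scale, which understates changes of dim genes. A gene was called where limma's adjusted p over all 18193 genes was below 0.05. The replicate C array of the restimulated group stood apart, with a mean intensity of 247 against 310 to 317 on the other 11 arrays, so the members' counts and medians that use it are also given without it. All 9 macrophage markers lay above the median gene, between 9.23 and 13.91, and the median of this list was 12.49 to 12.94 on untreated and 12.77 to 12.84 on LPS once arrays, though 6 of its genes were called after the first exposure. The T cell, B cell, erythroid and mast cell markers measured all lay below the median gene, as did 2 of 3 dendritic cell markers. By contrast, 2 of 4 neutrophil markers lay above it, S100a8 highest at 10.87. After the first exposure 2 of 3 dendritic cell markers and 1 of 3 mast cell markers were called as well. The fibroblast collagens Col1a1, Col1a2 and Col3a1 differed by replicate letter, at 8.67 to 11.48 in A, 10.05 to 12.15 in B and 5.58 to 7.16 in C, and were called neither after 1 LPS exposure nor between the groups given LPS last. Dcn, the remaining marker of the fibroblast list, overlapped between letters, at 6.43 to 7.23 in A, 6.18 to 7.96 in B and 5.51 to 6.45 in C. The part of the fibroblast markers in the results was not tested. In such bulk samples, fewer cells of a type and less RNA per cell cannot be told apart.

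All 76 genes were brighter than the median gene, whose mean over the 12 arrays was 6.36. Their means ran from 7.31 for Mrps27 to 10.77 for Mrpl27, with a median of 9.17, brighter than 81.1% of all genes. Among the large subunit symbols Mrpl1 was dimmest at 7.36 and Mrpl27, the counterpart of a bacterial protein that reaches towards the peptidyl transferase centre, was brightest. Among the small subunit symbols Mrps27 was dimmest and Mrps14 brightest, at 10.69. The median was 9.20 over the large and 9.00 over the small subunit symbols. Probe sets differ in how well they bind, so this order is one of signal and not of RNA amounts. Because the members were bright, they are set below against the 9096 genes brighter than the median gene, named the bright genes here, as well as against all genes.

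After 1 exposure to LPS, 26 of the 76 genes fell and 4 rose, and 46 were not called. Of all genes tested, 20.4% were called lower and 13% higher. The members' share called lower, 34.2%, was above that of all genes and close to the 36% of the bright genes, and their share called higher, 5.26%, was below the 14.7% of the bright genes. Both subunits took part, with 16 lower and 3 higher of 47 large subunit symbols and 10 lower and 1 higher of 29 small subunit symbols. The median change was -0.28 over the members, -0.27 over the bright genes and 0.04 over all genes. In each of the 30 called genes the 3 LPS once arrays and the 3 untreated arrays did not overlap, as in 99.1% of all genes called higher and 99.7% of all genes called lower. At least 2-fold falls were seen in 7 members, where 9.16% of all genes fell that far, and 1 member rose at least 2-fold, where 3.92% of all genes did. Of the 9096 bright genes, 1553 fell and 656 rose that far.

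The split between rises and falls depended on how the arrays were scaled. With every array scaled to the same 75th percentile, which moved the median change of all genes from 0.04 to 0.21, the members counted 13 higher and 14 lower and their median change was 0.02. These are 17.1% and 18.4% of the members, beside 25.1% and 24.8% of bright genes and 20.5% and 13.7% of all genes under that scaling. With quantile normalization they counted 9 higher and 24 lower, with a median of -0.16. These are 11.8% and 31.6%, beside 19.6% and 33.9% of bright genes. The sign of the members' median thus flipped under 75th percentile scaling, and so did that of the bright genes, from -0.27 to 0.03. Mrpl41, Mrpl42, Mrpl28, Mrpl34, Mrpl49, Mrpl2, Mrps35, Mrps36, Mrps16 and Mrps24 were called lower, and Mrpl52, Mrpl54 and Mrps18b higher, under both scalings.

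**Figure D1:**
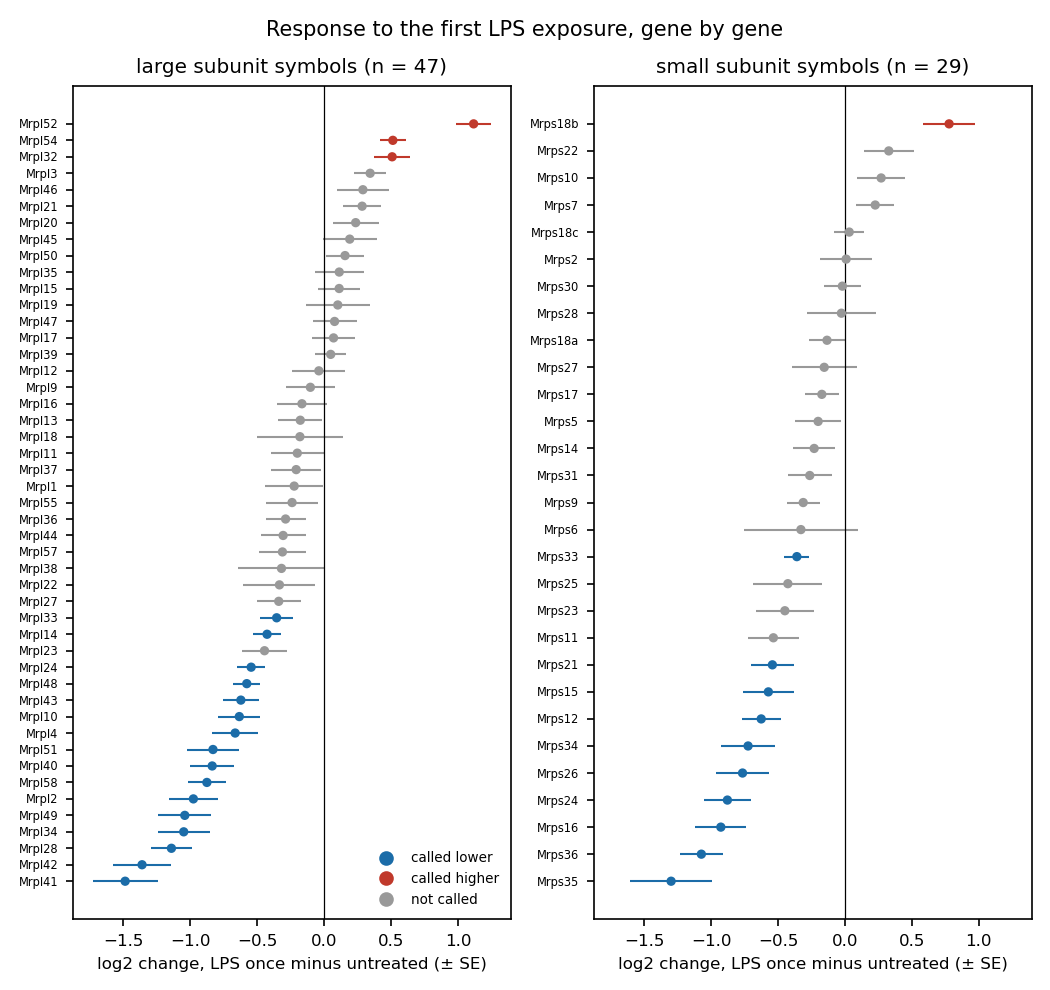
Change of each of the 76 genes after the first LPS exposure, as LPS once minus untreated in log2 units on the horizontal axis, with points at the change and bars of 1 SE from limma, n = 3 arrays per group. Blue points fell, red points rose and grey points were not called. The deepest falls are those of Mrpl41 and Mrpl42 in the large subunit and Mrps35 in the small, and Mrpl52 stands alone above 1. With 75th percentile scaling the counts become 13 higher and 14 lower.

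Mrpl41 encodes a large subunit protein with no bacterial counterpart that has also been described as a partner of the survival protein Bcl2. It was at 9.58, 9.58 and 9.63 in untreated replicates A, B and C and at 8.47, 7.96 and 7.91 after LPS. Its untreated values were nearly alike, all LPS values lay below them, and replicate A fell least. The change was -1.49 ± 0.24 (SE, n = 3 per group), a 2.8-fold fall with an adjusted p of 0.00127 in limma. Another probe set of Mrpl41 gave -1.57, and the dim one, at a level of 5.10, gave 0.06 and was not called.

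Mrpl42, likewise without a bacterial counterpart, fell from 10.44, 10.17 and 10.20 to 9.44, 8.50 and 8.79. Again the groups did not overlap and replicate A had the highest value after LPS. The fall was 2.57-fold (-1.36 ± 0.22, limma adjusted p = 0.00119). Over the 22 alternative fits described below the change ran from -1.62 to -0.68 and was called in all of them.

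Mrpl28 and Mrpl34 have bacterial counterparts. Mrpl28 went from 9.66, 9.42 and 9.51 to 8.67, 8.20 and 8.30, a change of -1.14 ± 0.15 (limma adjusted p = 0.000404). Mrpl34, which encodes a short basic protein, went from 9.11, 9.10 and 9.09 to 8.42, 7.91 and 7.82, a change of -1.05 ± 0.19 (limma adjusted p = 0.00262). For both, every LPS value lay below every untreated value, and replicate A was the highest of the LPS arrays. Over the 22 alternative fits the change of Mrpl28 ran from -1.28 to -0.76 and that of Mrpl34 from -1.23 to -0.41, called in all. Mrpl49 changed by -1.04 ± 0.20 (limma adjusted p = 0.00307). Mrpl2, whose bacterial counterpart lies close to the peptidyl transferase centre, changed by -0.98 ± 0.18 (limma adjusted p = 0.00288). The other 10 large subunit symbols called lower changed by between -0.87 and -0.35.

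In the small subunit the largest fall was that of Mrps35, a protein found only in mitochondria. Its untreated values were 8.54, 8.47 and 8.47, and after LPS it was at 8.03 in replicate A but 6.82 and 6.73 in B and C. The groups did not overlap, but the spread within the LPS group was wide. The change was -1.30 ± 0.31 (limma adjusted p = 0.00927), a 2.46-fold fall.

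Mrps36 fell by 1.07 ± 0.16 on the log2 scale (limma adjusted p = 0.000813), from 9.45, 9.54 and 9.52 to 8.69, 8.22 and 8.38. The symbol places it in the small subunit, but its product has since been assigned to the 2-oxoglutarate dehydrogenase complex of the citric acid cycle. Mrps16 and Mrps24, counterparts of bacterial small subunit proteins, changed by -0.93 ± 0.19 and -0.88 ± 0.18, with limma adjusted p of 0.00438 and 0.00418. Mrps26 and Mrps34, both specific to mitochondria, changed by -0.77 ± 0.20 and -0.72 ± 0.20 (limma adjusted p = 0.0156 and 0.0193). Mrps12, whose bacterial counterpart sits at the decoding centre, changed by -0.63 ± 0.15 (limma adjusted p = 0.00872), and Mrps15 by -0.57 ± 0.19 (limma adjusted p = 0.0434). Mrps26 lost its call without untreated A, LPS once B or LPS once C, at -0.70, -0.58 and -0.68, and also with 75th percentile scaling (-0.47), with the mean of its probe sets (-0.33) and with only the compared groups in the fit (limma adjusted p = 0.0959, 0.0576 and 0.0515). Mrps34 lost its call without untreated A, untreated B, LPS once B or LPS once C, at -0.73 to -0.64. Mrps12 and Mrps15 also lost theirs with 75th percentile scaling, at -0.33 and -0.27, and Mrps15 also in 9 of the 12 fits that left out 1 array, at -0.63 to -0.43. The remaining lower calls of the small subunit were Mrps21 at -0.54 and Mrps33 at -0.36, named here after their values were seen.

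Against this direction, Mrpl52 rose. It encodes a mitochondria-specific protein of the large subunit and was at 10.26, 10.17 and 9.88 in untreated cells and at 11.44, 11.22 and 11.00 after LPS. The lowest LPS value was well above the highest untreated one, and the rise appeared in every replicate. The change was 1.12 ± 0.13, a 2.17-fold rise with a limma adjusted p of 0.000194. All 4 probe sets of Mrpl52 were called higher, with changes from 1.08 to 1.58. Such agreement was not general. Of the 42 members with several probe sets, 13 were called by their brightest one when all probe sets were fitted. In 7 of these 13 another probe set was called the same way, and in no member were probe sets called in opposite directions.

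Mrps18b rose from 8.99, 8.98 and 9.02 to 9.77, 9.64 and 9.91 (0.78 ± 0.19, limma adjusted p = 0.0114). It is 1 of 3 mammalian versions of the single bacterial protein S18, and they did not move alike. Mrps18a, whose product lies in the large subunit despite its name, had a change of -0.13 ± 0.13 (limma adjusted p = 0.466), and Mrps18c one of 0.03 ± 0.11 (limma adjusted p = 0.849). The difference among the 3 was not tested. Mrpl54 rose by 0.51 ± 0.10 (limma adjusted p = 0.00281), and so did Mrpl32, which the mitochondrial m-AAA protease trims before it joins the ribosome, by 0.51 ± 0.13 (limma adjusted p = 0.0158). The call of Mrpl32 was lost without untreated A, LPS once A or LPS once C, at 0.45 to 0.48 with a limma adjusted p of up to 0.0596.

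Mrpl12, the stalk protein on which translation factors land, was at 9.16, 9.19 and 9.16 in untreated cells and 9.49, 8.75 and 9.16 after LPS, a change of -0.04 ± 0.20 (limma adjusted p = 0.895). Its LPS values lay on both sides of the untreated ones. Mrps30, another large subunit protein with a small subunit name, changed by -0.02 ± 0.14 (limma adjusted p = 0.926). Mrps18c and Mrps30 were the steadiest members, with SDs over all 12 arrays of 0.13 and 0.17, against 0.81 for Mrpl41 and 0.77 for Mrpl42. The 46 members that were not called had changes between -0.53, for Mrps11, and 0.34, for Mrpl3.

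The members were also sorted by bacterial ancestry. Of 46 genes with a bacterial counterpart, 13 fell (28.3%) and 2 rose, with a median change of -0.21. Of 30 specific to mitochondria, 13 fell (43.3%) and 2 rose, with a median of -0.34. The shares lie on either side of the 36% of bright genes called lower, beside 20.4% of all genes. All 76 members were sorted, Mrps36 among them. The difference was not tested.

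**Figure D2:**
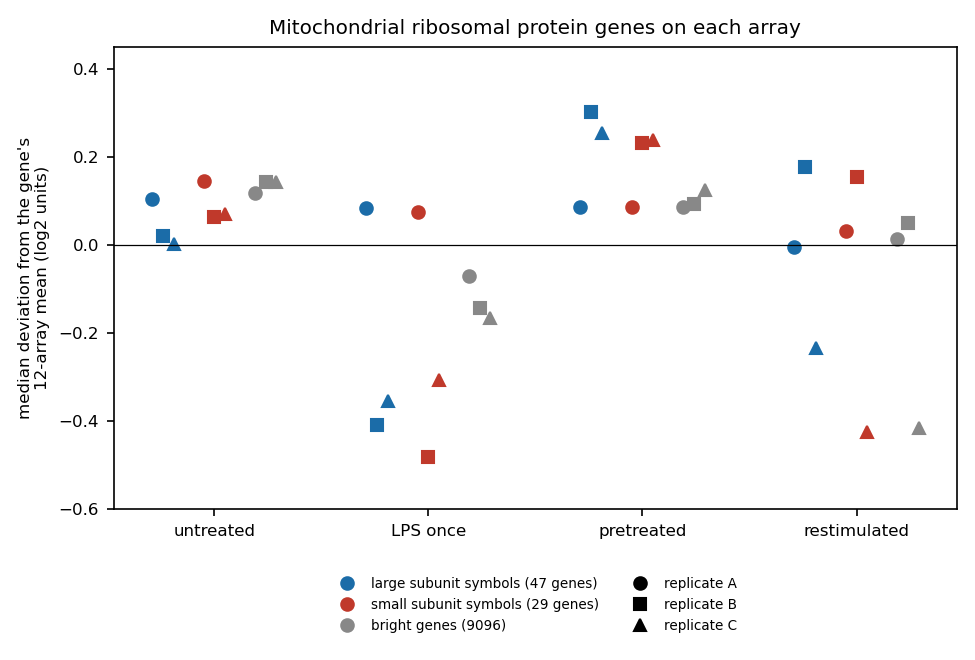
Median deviation of the large and small subunit symbols, and of the 9096 bright genes, from each gene's mean over the 12 arrays (vertical axis, log2 units), for every array of the 4 groups. Replicates B and C of LPS once lie far below replicate A for both subunits, and restimulated replicate C lies low for the subunits and for the bright genes alike.

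The arrays given LPS once were not alike for these genes. The members' median deviation from their 12-array means was 0.08 in replicate A and -0.41 and -0.33 in B and C, while the bright genes lay at -0.07, -0.14 and -0.17. Taken within each letter, which pairs the arrays, the median first response of the members was -0.05 in A, with 41 of 76 genes below zero, -0.43 in B, with 63 below zero, and -0.34 in C, with 57 below zero. The bright genes gave -0.19, -0.29 and -0.31. The fall of the family as a whole was therefore near zero in replicate A. The genes called lower were lower in all 3 letters, but this follows from their groups not overlapping and adds no evidence. Without LPS once replicate A, 31 members were called lower, and without LPS once replicate C 18 were. The shares of all and bright genes in these fits are not given here.

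Cells that had been pretreated and rested were compared with untreated cells to see what remained of the first exposure. No member was called in either direction, where 0.473% of all genes were called higher and 0.451% lower. At an unadjusted p below 0.05 limma gave 8 members higher (10.5%, beside 5.8% of all and 6.94% of bright genes) and 1 lower (1.32%, beside 6.26% and 10%), and the members' median change was 0.12, with -0.04 in the bright genes. Mrpl39, which resembles a threonyl-tRNA synthetase, came nearest to a call. It was at 10.18, 10.21 and 10.09 in untreated and 9.53, 9.76 and 9.48 in pretreated cells, without overlap, a change of -0.57 ± 0.11 (limma adjusted p = 0.0563). Without restimulated replicate C, which enters that fit only through the shared spread, Mrpl39 was called, and quantile normalization also called it. Mrpl42 had the largest change upwards, 0.55 ± 0.22 (limma adjusted p = 0.352), with pretreated values of 10.75, 10.75 and 10.95. Mrpl41 stood at 9.56, 10.22 and 10.32 (0.44 ± 0.24, limma adjusted p = 0.547), Mrps24 at a change of 0.42 ± 0.18 (limma adjusted p = 0.376) and Mrps16 at 0.32 ± 0.19 (limma adjusted p = 0.587).

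The response to the second exposure, restimulated against pretreated cells, also held no called member. Of all genes, 0.962% were called higher and 3.09% lower. At an unadjusted p below 0.05 limma gave no member higher, beside 4.51% of all genes, and 13 lower, or 17.1%, beside 15.3% of all and 26.5% of bright genes. The members' median change was -0.24, with -0.21 in the bright genes, and without restimulated replicate C the 2 values were -0.09 and -0.07. Within letters the members' medians were -0.07 in A, -0.06 in B and -0.57 in C, and the value of C rests on the array that stood apart. The largest changes were those of Mrps35 at -0.83 ± 0.31 and Mrps36 at -0.63 ± 0.16 in the small subunit, with limma adjusted p of 0.167 and 0.0634. In the large subunit they were Mrpl18 at -0.62 and Mrpl49 at -0.61 (limma adjusted p = 0.319 and 0.122). Without restimulated replicate C these 4 changes were -0.63, -0.44, -0.28 and -0.48. Mrps36 was at 9.54, 9.61 and 9.57 in pretreated and 8.99, 9.27 and 8.58 in restimulated cells, so these groups did not overlap, and it was called when restimulated replicate B was left out and when only the bright genes were tested. Without restimulated replicate B, 5 members were called lower, and the shares of all and bright genes in that fit are not given here.

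The 2 responses were set against each other directly, as the second minus the first. Mrpl52 was the only member called, and it was lower, where 1.97% of all genes were called lower and 1.93% higher. Its pretreated values of 10.14, 10.40 and 10.41 and its restimulated values of 10.41, 10.45 and 10.49 were close together, a second response of 0.13 ± 0.13 against 1.12 in the first. The difference was -0.98 ± 0.18 (limma adjusted p = 0.0222). The call was lost with quantile normalization and without untreated B, untreated C, pretreated B or pretreated C, at -1.02 to -0.81 with a limma adjusted p of up to 0.0568. At an unadjusted p below 0.05 limma gave 10 members higher and 3 lower, or 13.2% and 3.95%, beside 8.55% and 8.96% of all genes and 15.4% and 11.3% of bright genes. Mrpl41 had the largest difference the other way, 1.05 ± 0.34 (limma adjusted p = 0.143), followed in the small subunit by Mrps16 at 0.63 ± 0.27 and Mrps24 at 0.56 ± 0.25, with limma adjusted p of 0.258 and 0.286. Without LPS once replicate A, 4 members were called higher, and the shares of all and bright genes in that fit are not given here. With all arrays, a difference between the first and the second response was not called for any member other than Mrpl52.

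**Figure D3:**
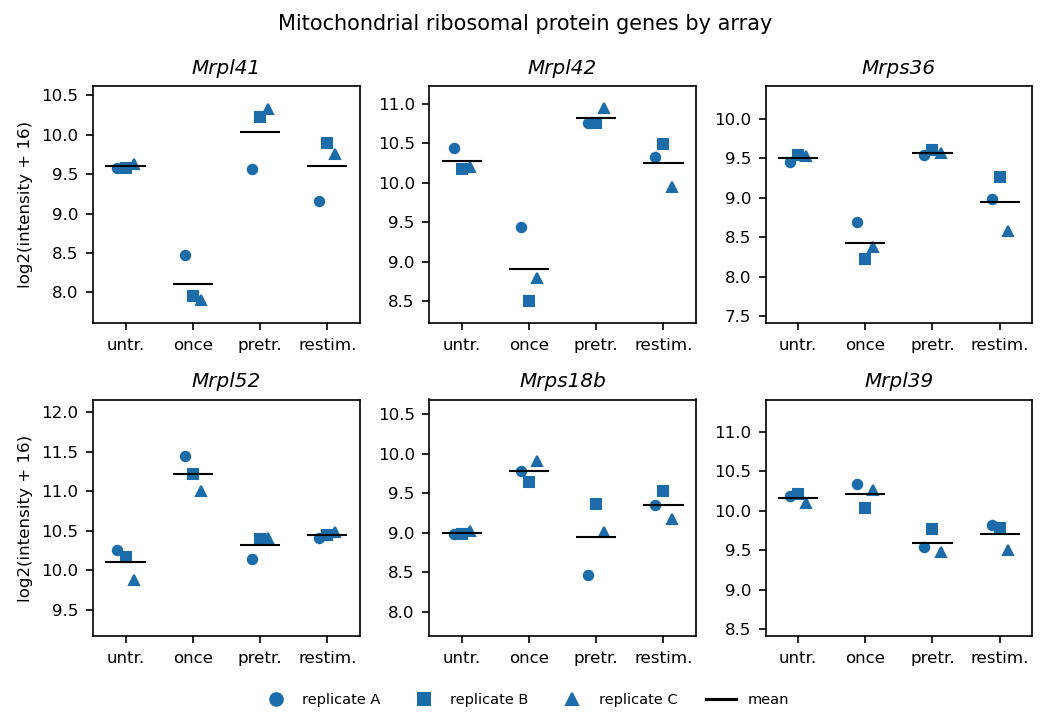
log2(intensity + 16) of 6 member genes on each of the 12 arrays, with the groups untreated, LPS once, pretreated and restimulated from left to right, symbols for the replicate letters and a line at the group mean. Every vertical axis spans the same number of log2 units. Mrpl41, Mrpl42 and Mrps36 are lowest after 1 LPS exposure, Mrpl52 is highest there, and Mrpl39 lies at 9.48 to 9.82 in both groups pretreated with LPS, where pretreated against untreated cells was not called.

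The last comparison set restimulated cells against cells given LPS once, 2 groups that both received LPS at the last step and differ in the earlier exposure. Here 13 members were higher and 2 lower in restimulated cells, where 7.49% of all genes were called higher and 7.21% lower. The members' share called higher was 17.1%, beside 14.5% in the bright genes, and their median difference was 0.16, beside 0.03. Without restimulated replicate C the medians were 0.29 and 0.15, and 27.6% of members and 25% of bright genes were called higher. Large subunit symbols gave 10 higher and 2 lower, and small subunit symbols 3 higher and none lower, or 7 and 2 at limma's unadjusted p below 0.05. At least 2-fold, 3 members were higher, where 2.51% of all genes were, and none was lower, where 3.21% were. Of the 9096 bright genes, 455 were higher and 537 lower by that much. This comparison uses the same LPS once arrays as the first response, so the values of the 2 comparisons are not independent.

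Mrpl41 was at 9.16, 9.89 and 9.75 in restimulated cells against 8.47, 7.96 and 7.91 in cells given LPS once, a difference of 1.49 ± 0.24 (limma adjusted p = 0.00336). Mrpl42 was at 10.32, 10.48 and 9.95 against 9.44, 8.50 and 8.79, a difference of 1.34 ± 0.22 (limma adjusted p = 0.0034). In both genes all restimulated values lay above all LPS once values and near the untreated ones. Mrpl34 was higher by 1.05 ± 0.19 and Mrpl28 by 0.95 ± 0.15, with limma adjusted p of 0.00621 and 0.003. Over the 22 alternative fits the difference ran from 0.82 to 1.60 for Mrpl42, 0.52 to 1.23 for Mrpl34 and 0.69 to 1.11 for Mrpl28. Mrpl40 was higher by 0.90 ± 0.16 (limma adjusted p = 0.00545). Mrpl14, whose bacterial counterpart lies at the interface of the subunits, was at 9.36, 9.51 and 9.43 against 8.84, 8.66 and 8.59, and its difference of 0.73 ± 0.11 had the smallest limma adjusted p of the members, 0.0019. The other 4 large subunit symbols called higher differed by 0.42 to 0.72.

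In the small subunit Mrps24 was higher by 0.98 ± 0.18, Mrps16 by 0.95 ± 0.19 and Mrps33 by 0.43 ± 0.09, with limma adjusted p of 0.00537, 0.00876 and 0.0137. Mrps35 and Mrps36, among the deepest falls of the first response, had differences of 0.54 ± 0.31 and 0.52 ± 0.16 that were not called (limma adjusted p = 0.314 and 0.0613). Mrps12, Mrps15, Mrps18a, Mrps18b, Mrps18c, Mrps30 and Mrpl12 had differences between -0.42 and 0.27 and were not called. Without restimulated replicate C, Mrps18a was called higher by limma, at 0.36.

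Mrpl52 was lower in restimulated cells, by 0.77 ± 0.13 on the log2 scale (-0.77, limma adjusted p = 0.00398), its 3 values of 10.41 to 10.49 lying below the 11.00 to 11.44 of cells given LPS once. Mrpl39 was also lower, at 9.82, 9.79 and 9.50 against 10.34, 10.03 and 10.26 (-0.51 ± 0.11, limma adjusted p = 0.0156), with no overlap. Its level was thus 9.48 to 9.82 on all 6 arrays of cells that had received LPS for 18 h and 10.03 to 10.34 on the other 6. Of the 13 higher members, 12 had groups that did not overlap, the exception being Mrpl4, and neither lower member had groups that overlapped, where 95.8% of all genes called higher and 99.2% of those called lower had groups apart. The call of Mrpl39 was lost without LPS once C (-0.48, limma adjusted p = 0.0572) and so was that of Mrps33 (0.41, limma adjusted p = 0.0515). Mrpl39 also lost it with the mean of its probe sets (-0.42, limma adjusted p = 0.0544) and Mrps33 with 75th percentile scaling (0.45, limma adjusted p = 0.0697).

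This count depended on single arrays and on the fit. It was 22 without LPS once replicate A, 9 without LPS once replicate C and 21 without restimulated replicate C, and 2 where only the arrays of the groups compared entered the fit, which ended the calls of Mrpl42, Mrpl34, Mrpl28, Mrpl40, Mrps24, Mrps16, Mrps33 and Mrpl39 (limma adjusted p = 0.0517 to 0.103). Quantile normalization gave 27 higher and 3 lower, or 35.5% and 3.95%, beside 23.9% and 12.7% of bright genes. Scaling to the 75th percentile gave 18 higher and 4 lower, or 23.7% and 5.26%, beside 18.7% and 14.9% of bright genes. The count of lower members was 5 without LPS once replicate B and 4 without restimulated replicate B. Calls of other genes moved too, since 25% of bright genes were called higher without restimulated replicate C and 14.5% with all arrays. For the other fits on fewer arrays the shares of all and bright genes are not given here. Within letters the members' median difference was -0.09 in A, 0.56 in B and -0.02 in C. Mrpl41 and Mrpl14 were called higher and Mrpl52 lower under every alternative tried. With all probe sets fitted, 10 members with several were called by their brightest one. Another probe set was called the same way in 4 of these 10.

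The promoters of the members were read to see which textbook recognition letters they hold, and those of 4 genes with large changes are shown. RefSeq entries on GRCm38.p6 were found for 67 of the 76 genes, in 73 windows of 300 bases, from 250 before to 50 after the start. The sequences below are the 120 bases before the start, in the direction of the gene, for Mrpl41 (chr2:24975099-24975218, minus strand), Mrpl42 (chr10:95501950-95502069, minus strand), Mrpl34 (chr8:71464806-71464925, plus strand) and Mrpl52 (chr14:54426789-54426908, plus strand). Capitals mark the ETS core CCGGAAG or its reverse complement CTTCCGG, the letters bound by GABP, an ETS family regulator of nuclear genes for mitochondria.
Mrpl41: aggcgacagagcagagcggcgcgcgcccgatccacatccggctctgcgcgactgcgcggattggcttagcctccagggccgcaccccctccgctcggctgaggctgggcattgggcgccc
Mrpl42: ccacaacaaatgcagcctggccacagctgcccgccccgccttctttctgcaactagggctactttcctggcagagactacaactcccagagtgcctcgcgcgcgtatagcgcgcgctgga
Mrpl34: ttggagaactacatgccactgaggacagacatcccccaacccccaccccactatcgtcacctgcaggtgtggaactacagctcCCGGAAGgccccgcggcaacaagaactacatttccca
Mrpl52: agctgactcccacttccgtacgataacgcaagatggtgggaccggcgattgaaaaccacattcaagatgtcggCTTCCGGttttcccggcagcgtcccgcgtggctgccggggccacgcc
The falling gene Mrpl34 and the rising gene Mrpl52 both held the ETS core, with its first base 37 and 47 bases before the start. The falling genes Mrpl41 and Mrpl42 did not hold it in these stretches. Neither did the falling genes Mrpl28 and Mrps36, whose stretches were also read but are not printed.

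The ETS core, on either strand, stood in 25 of the 73 member windows, or 34.2%, beside 8.86% of all 32851 promoter windows and 19% of those of the bright genes. AAGATGGC, the YY1 core, stood in 16.4% of member windows, beside 2.75% of all and 4.96% of the bright genes. GCATGCGC, the core letters of the NRF1 site, stood in 11% of member windows, beside 2.71% and 5.53%. The E-box CACGTG stood in 9.59%, beside 7.15% and 10.5%. The 4 strings were searched apart and on both strands. Members that fell after the first exposure held the ETS core in 11 of 29 windows, or 37.9%, and these windows came from 23 genes. Members that were not called held it in 12 of 41 windows, or 29.3%, from 41 genes. Members that rose held it in 2 of 3 windows, from 3 genes. Genes with several windows were thus counted repeatedly only among the members that fell. These shares therefore do not compare genes, and their difference was not tested. A match describes the letters only.

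The genes around the mitoribosome were taken from lists of its known partners. Among mitochondrial aminoacyl-tRNA synthetases and the partner enzymes that charge its tRNAs, 11 of 19 measured, or 57.9%, fell after the first exposure and none rose, with a median of -0.78. For this and the next lists the share called lower was 20.4% of all genes and 36% of bright genes. Gatc, a subunit of the glutaminyl amidotransferase, changed by -1.64, and the histidyl and cysteinyl synthetases Hars2 and Cars2 by -1.48 and -1.14. Of 12 translation factors, 5 fell (41.7%) and none rose, among them the translation GTPase Guf1 at -1.10 and Oxa1l, which inserts new subunits into the inner membrane, at -0.86. Of 22 factors for assembly of the mitoribosome and modification of its RNA, 9 fell (40.9%) and 2 rose. Rbfa, a maturation factor of the small subunit, changed by -2.18 ± 0.20 (limma adjusted p = 5.87e-05), more than any ribosomal protein measured here. Of 12 genes for transcription and copying of the mitochondrial genome, 3 fell (25%) and none rose. At limma's unadjusted p below 0.05 none rose among the synthetases, the translation factors or these 12 genes either. Of 4 mitoribosomal proteins with other symbols, Dap3 fell by 0.36 on the log2 scale (-0.36).

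Of 9 regulators of nuclear genes for mitochondria, 3 rose and none fell, beside 13% of all genes and 14.7% of bright genes called higher. At limma's unadjusted p below 0.05 none was lower, and Nrf1, Gabpa, Yy1, Ppargc1a, Ppargc1b and Myc were not called (limma adjusted p = 0.0738 to 0.499). The largest rise was that of Gabpb1, the beta subunit of GABP, at 1.84 ± 0.18 (limma adjusted p = 8.12e-05). Pprc1, a coactivator of the same programmes, rose by 0.77 and Esrra, an orphan nuclear receptor, by 0.40. In restimulated against LPS once cells Gabpb1 was lower, at -1.67, as were Gabpa, the DNA-binding partner, at -0.79 and Myc at -1.84. The second response of Gabpb1 was smaller than its first by 1.36 ± 0.26 on the log2 scale (-1.36, limma adjusted p = 0.0229).

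The products of the mitoribosome work beside nuclear-encoded subunits of the respiratory chain, of which 39 of 70, or 55.7%, fell and 1 rose after the first exposure, with a median of -0.37, beside 36% lower among the bright genes. In restimulated against LPS once cells 37 of the 70, or 52.9%, were higher, beside 14.5% of bright genes, and none lower, or 53 and none at limma's unadjusted p below 0.05, with a median of 0.45. Cytosolic ribosomal protein genes gave 14 lower (31.8%) and 1 higher of 44 measured after the first exposure, with a median of -0.15, and 5 lower (11.4%, beside 12.5% of bright genes) and none higher in the latter comparison, or 9 and 1 at limma's unadjusted p below 0.05. Scaling mattered here too. With 75th percentile scaling the first response counted 5 lower and 4 higher respiratory chain genes, none lower and 2 higher cytosolic ribosomal protein genes, whose median turned to 0.15, and 9 lower and 2 higher synthetases. It also counted 7 lower and 7 higher assembly factors, 4 lower and 1 higher translation factors, 1 lower transcription and copying gene, and 5 higher regulators. Under that scaling 24.8% of bright genes were called lower and 25.1% higher, beside 13.7% and 20.5% of all genes. The differences between these lists and the mitochondrial ribosomal proteins were not tested.

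**Figure D4:**
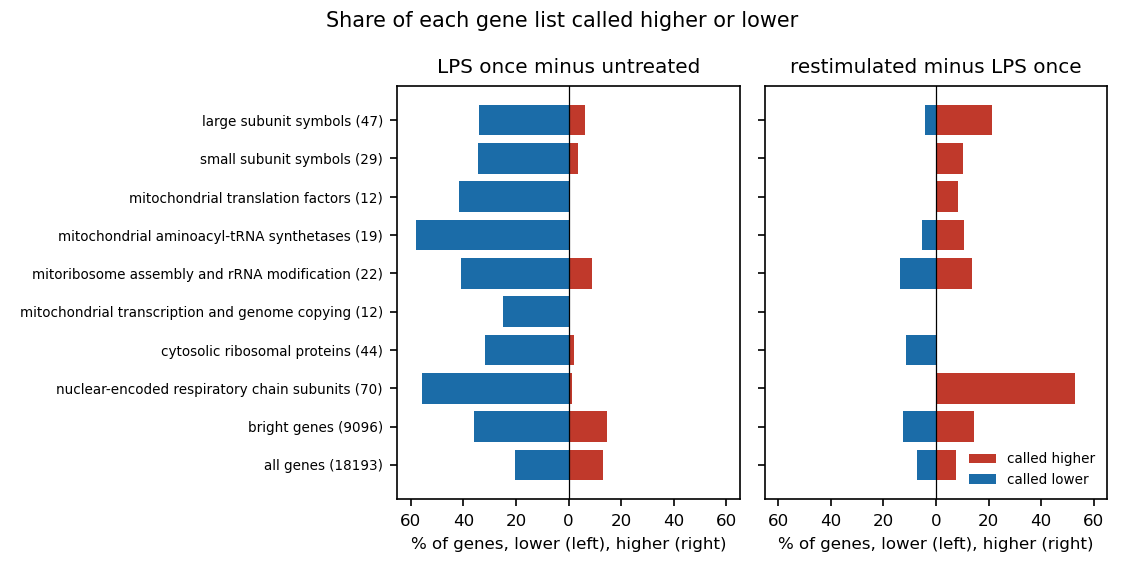
Percentage of each gene list called lower (blue, to the left) and higher (red, to the right), for LPS once minus untreated and for restimulated minus LPS once, with the number of genes measured in brackets. Both subunits lie near the bright genes for lower calls in the first comparison, and the respiratory chain subunits have the longest bar for higher calls in the second. With 75th percentile scaling the respiratory chain had 5 lower and 4 higher calls in the first comparison, and the mitochondrial ribosomal proteins 14 and 13. Of bright genes, 24.8% were then called lower and 25.1% higher.

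In the second response 2 of 22 assembly factors (9.09%), 1 of 12 transcription and copying genes (8.33%) and 1 of 19 synthetases (5.26%) were called lower. The shares called lower were 3.09% of all and 5.34% of bright genes. No translation factor was called. Rbfa changed by -1.09 and Mrm2, a methyltransferase of the large ribosomal RNA, by -0.69. Polg2, the accessory subunit of the mitochondrial DNA polymerase, changed by -1.33 and Cars2 by -0.76, all 4 called lower by limma. Without restimulated replicate C the calls of Rbfa (-0.93), Mrm2 (-0.70) and Cars2 (-0.61) were lost, with limma adjusted p of 0.0632, 0.0544 and 0.0543, and Polg2 was still called at -1.20. Between the groups given LPS last, the assembly factors gave 3 higher and 3 lower, or 13.6% each. These shares were close to the 14.5% higher and 12.5% lower of the bright genes. Rbfa was higher by 1.25 and Mrm1 by 0.86. Noa1 was lower at -0.90, a call lost without restimulated replicate C (-0.74, limma adjusted p = 0.0618). Oxa1l was higher by 0.71. Dap3 was higher by 0.43 and Ptcd3, another small subunit protein, lower at -0.62.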

How the data were processed

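RNA from the 12 macrophage cultures was isolated with TriFast and labelled by the Affymetrix standard procedure, per the labels' protocols. The authors deposited 1 linear intensity for each probe set on each array. Which software, background correction and scaling produced the deposited intensities is not stated in the labels, and that they are linear was judged from their range.

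Of 45101 probe sets, 64 were controls, 34945 had 1 gene symbol in the platform annotation, 932 had several and 9160 are unnamed here. The RefSeq gene table of GRCm38.p6 gave current names for 34741 probe sets through the Entrez identifier, and the platform's symbol was kept for 204. Each gene is its single-symbol probe set of highest mean, and 7 of the 76 members' probe sets carry a suffix for probes shared between transcripts.

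log2(intensity + 16) was fitted with limma 3.58.1 in R 4.3.3, with the means of 4 groups over 12 arrays (8 residual degrees of freedom) and no further normalization, and p-values were adjusted by the Benjamini-Hochberg method over all 18193 genes. The script was tested on simulated data. All 18 pairs of same-letter arrays deviated together (r = 0.252 to 0.661 over all genes). Replicate letters were therefore taken as pairing the arrays in the values within letters and in the replicate block alternative. The main fit, which gave the calls and p-values above, held no term for the letter and was not paired. The precision is limited by 3 arrays a group.

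The members and gene lists were chosen with earlier results of these data known. Genes named were, in each comparison and subunit, up to 6 called with the largest rise and 6 with the largest fall, or the 2 with the largest change where fewer than 2 were called, and in any case Mrpl12, Mrps12, Mrps15, Mrps18a, Mrps18b, Mrps18c, Mrps30 and Mrpl41. From each other list, up to 3 called genes were named. Alternatives were other scalings, pseudocounts, filters, probe sets, a replicate block, the compared groups only, and each array left out.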

Additional observations from a re-analysis of the deposited data

Results flagged for a closer look

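Mrpl52 was singled out because its second response differed from its first in the direct test of that difference. The second minus the first response was -0.98 ± 0.18 (SE, 3 arrays per group, limma adjusted p = 0.0222). The second response was the smaller in 3 of 3 replicate letters.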

How the results depend on the processing

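Among 75 pairs of a named member and a comparison, set against up to 22 alternatives each, 1526 values kept direction and side of the threshold, 42 lost a call, 16 gained one and 46 changed sign. Of the 30 called pairs, 16 kept the call throughout: lower first responses of Mrpl41, Mrpl42, Mrpl28, Mrpl34, Mrpl2, Mrpl49, Mrps35, Mrps36, Mrps16 and Mrps24, higher ones of Mrpl52, Mrpl54 and Mrps18b, and, between the groups given LPS last, Mrpl41, Mrpl14 and Mrpl52. The cause of the changes below was not tested. Array number and signal limit these results, since 3 arrays a group gave the members' first responses an SE of 0.09 to 0.42.

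Members higher in the first response numbered 4, and 9 with quantile normalization, 9 with that and no restimulated C, and 13 with 75th percentile scaling. Members lower there numbered 26, and 14 with that scaling. In the pretreatment comparison the compared groups alone gave 1 higher and 1 lower, and quantile normalization gave 1 lower with or without restimulated C. In the second response a fit to the bright genes gave 1 lower. In the second minus the first response, quantile normalization gave 3 higher and 0 lower, the same without restimulated C gave 1 higher, and the mean of probe sets gave 2 lower. In restimulated against LPS once cells, 13 higher became 27 with quantile normalization, 22 with that and no restimulated C and 2 with the compared groups only, and 2 lower became 4 with 75th percentile scaling and 1 with the compared groups only. The replicate block gave 5 higher and 26 lower in the first response and 15 higher and 2 lower in the last comparison, and moved no count by over 1.5 times. The alternative without probe sets shared between transcripts and the one combining quantile normalization with no restimulated C were chosen after seeing the data.

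Leaving out 1 array at a time gave 3 to 5 higher and 18 to 31 lower in the first response. It gave 0 to 0 higher and 0 to 1 lower in the pretreatment comparison. The second response had 0 to 0 higher and 0 to 5 lower. The second minus the first had 0 to 4 higher and 0 to 1 lower, and the last comparison 9 to 22 higher and 1 to 5 lower. These are counts of members, and for most of these fits the shares of all and bright genes are not given.

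Changes of sign came from small changes that were not called. In the first response Mrpl12 was 0.06 with quantile normalization, 0.06 with that and no restimulated C and 0.26 with 75th percentile scaling, Mrps30 was 0.14, 0.14 and 0.28, and Mrps18a was 0.17 with 75th percentile scaling. In the pretreatment comparison Mrps12 was 0.01, 0.01 and 0.05 under the 3 in that order, Mrps18b was 0.01 with 75th percentile scaling and Mrps15 was -0.01 with the mean of probe sets. In the second response, with quantile normalization and 75th percentile scaling, Mrpl12 was 0.02 and 0.08, Mrps18a 0.10 and 0.18, Mrps18c 0.05 and 0.16 and Mrps30 0.04 and 0.07, and with quantile normalization and no restimulated C Mrps18a was 0.10 and Mrps30 0.01. In the second minus the first response Mrps18c was 0.03 with quantile normalization. In the last comparison Mrps18c was 0.08 and Mrps30 0.03 with quantile normalization, and Mrps18c was 0.02 with that and no restimulated C. With 1 array left out, first responses ran from -0.22 to 0.15 for Mrpl12, -0.10 to 0.10 for Mrps18c and -0.11 to 0.08 for Mrps30. Pretreatment changes ran from -0.05 to 0.02 for Mrps12, -0.26 to 0.19 for Mrps18b, -0.01 to 0.08 for Mrps18c and -0.01 to 0.13 for Mrps15. The second response of Mrps18a ran from -0.20 to 0.08. The second minus the first ran from -0.32 to 0.05 for Mrpl12, -0.07 to 0.22 for Mrps18a and -0.19 to 0.01 for Mrps18c. The last comparison ran from -0.16 to 0.21 for Mrpl12, -0.16 to 0.05 for Mrps18c and -0.19 to 0.07 for Mrps30.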
